A study of Homo sapiens with 16 samples.

Results

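A673 is an established cell line from a Ewing sarcoma, a tumour of bone and soft tissue driven by the fusion protein EWS-FLI1, and Asp14 is 1 clone of it that carries a doxycycline-inducible knockdown of this fusion. The arrays described here are the 2 hybridised after 96 h of doxycycline at 1 µg/ml and the 4 of cells taken at 0 h with no doxycycline, 6 of the 16 arrays of a time course with 6 time points. They were chosen by their labelled time alone, and the 2 arrays at 72 h, also at 1 µg/ml, serve as the nearest earlier point. The series title relates E2F to EWS-FLI1. Cells of all groups carried the hairpin vector and a second vector labelled TR and were grown with Zeocin and Blasticidin to keep them, so the controls are not parental A673 cells. Every untreated array is from 0 h. Loss of EWS-FLI1, doxycycline itself and 96 h in culture therefore cannot be told apart. Whether replicates are separate cultures is not stated in the labels, and the p-values therefore reflect only how far arrays spread, which may be technical. With 2 arrays at 96 h, the number of arrays limits the precision.

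EWS-FLI1 joins the activating part of EWSR1, an RNA-binding protein, to the DNA-binding domain of FLI1, a transcription factor of the ETS family. It is known to activate genes from repeats of the GGAA motif and to hold down many genes of mesenchymal cells, among them genes of matrix, adhesion and contraction. E2F factors drive the genes of DNA replication, and genes of mitosis are driven later in the cycle through a promoter element called CHR.

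All values are log2 expression values as deposited. The lower quartile of all probe sets lay between 2.31 and 2.36 on the 16 arrays, and a gene was read as measured at log2 4 or above. Of 11963 genes named by a probe set with 1 symbol, 7304 reached log2 4 on at least 2 arrays and were tested. The median over all probe sets was 4.16 to 4.26 at 0 h and 4.36 and 4.40 at 96 h, so the groups did not overlap in it. The difference between the 3′ and 5′ probe sets of ACTB, a sign of RNA quality, was 1.47 to 2.06 at 0 h and 1.83 and 1.56 at 96 h, and here they overlapped. Replicates 2 and 3 at 0 h were unusually alike, with an SD of their differences of 0.176 against 0.368 to 0.456 for the other pairs at 0 h. Only 1 value was identical between them, and they were kept as separate arrays.

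The cells showed the known markers of Ewing sarcoma at 0 h. CD99, the surface protein used to diagnose the tumour, stood at 13.39 to 13.83. NKX2-2, a transcription factor of the same tumour, stood at 10.20 to 10.65, and STEAP1, a membrane protein, at 11.44 to 11.81. At 96 h NKX2-2 read 7.33 and 7.85 and STEAP1 9.39 and 8.83, below all untreated arrays. CD99 fell by 0.38 ± 0.12 (SE) to 13.15 and 13.31 at 96 h (limma adjusted p = 0.0138), and the call was lost without replicate 1 at 96 h (-0.31, adjusted p = 0.124). All 8 blood cell markers on the array, PTPRC and CD14 among them, were below log2 4 on all 6 arrays, with a summed level of 17.42 to 17.62 at 0 h and 17.15 to 17.41 at 96 h. Of 10 epithelial markers 9 were below log2 4, EPCAM and CDH1 among them, and the exception was the keratin KRT18, which rose by 0.96 ± 0.26. The summed level of these 10 was 31.00 to 31.95 at 0 h and 33.05 to 33.72 at 96 h. Of 9 endothelial markers 7 were below log2 4, PECAM1, CDH5 and VWF among them. EMCN, a surface sialomucin of vessels, rose from 8.85 to 9.90 at 0 h to 10.66 and 11.18, and KDR, a receptor for VEGF, stood below log2 4 at 0 h and at 4.64 and 5.76 at 96 h. The summed endothelial level was 30.77 to 31.95 at 0 h and 33.67 to 35.76 at 96 h, and its part in the results below was not tested.

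FLI1 checks the knockdown. Its probe set read 10.17, 10.08, 10.06 and 9.99 at 0 h and 6.92 and 6.52 at 96 h, so both treated arrays lay far below all untreated ones. FLI1 fell by 3.35 ± 0.16 on the log2 scale, 10.2-fold (limma adjusted p = 2.1e-09). Its other probe sets fell by 3.84 and 2.54. EWSR1, whose probe sets also read the normal EWSR1 transcript, fell by 0.51 ± 0.10 (limma adjusted p = 0.000675), from 9.31 to 9.40 at 0 h to 8.97 and 8.72. Its second measured probe set fell by 0.70. At 72 h FLI1 had stood at 7.11 and 6.88, and the difference between 96 h and 72 h, -0.27 ± 0.19, did not pass the threshold (limma adjusted p = 0.322).

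Expression at 96 h differed from 0 h across most measured genes. At an adjusted p under 0.05 in limma, 4440 of 7304 genes changed, 60.8% of those tested, with 1830 higher (25.1%) and 2610 lower (35.7%). These shares are the background for every count below. With a change of at least 1 on the log2 scale also required, 904 genes were higher (12.4%) and 769 lower (10.5%), and 973 of the calls were changes under 0.5. Among genes at log2 4 or above on all 6 arrays, 92 were higher and 19 lower by 3 or more. The arrays of the groups did not overlap for 5006 genes (68.5%). The median change over all genes tested was -0.10 and the median SE 0.15. Among genes past the threshold, replicate 2 at 96 h lay farther from the 0 h mean in 2709 and replicate 1 in 1730. Among 1522 called genes with more than 1 measured probe set, 1436 had all of them in the same direction.

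Some genes went from array background at 0 h to high values at 96 h. For 246 genes (3.37% of those tested) every probe set was below log2 4 on all 4 untreated arrays and both treated arrays were above them. Their folds are lower limits, taken from the 96 h mean against log2 4. The highest bound was that of MGP, a matrix protein that inhibits calcification, which read 2.08, 2.05, 2.06 and 2.29 at 0 h and 12.96 and 13.66 at 96 h. MGP was at least 635-fold higher (limma adjusted p = 9.6e-12). IGFBP3, a binding protein for insulin-like growth factors and a known repressed target of EWS-FLI1, read 2.66, 2.61, 2.61 and 3.22 at 0 h and 12.24 and 12.70 at 96 h. It was at least 355-fold higher (limma adjusted p = 3.8e-12), and its second probe set moved from at most 2.31 to 9.30 and 10.85. In both genes replicate 4 was the highest untreated array, still below the limit of log2 4.

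Most of the other genes with the highest bounds encode secreted or matrix proteins. PAMR1, a secreted protein with protease-like domains, was at least 175-fold higher at 96 h (11.10 and 11.81). VCAN, the large matrix proteoglycan versican, was at least 143-fold higher, with all 5 of its probe sets below log2 4 at 0 h and at 7.41 or above at 96 h. FGL2, a fibrinogen-like protein, was at least 114-fold higher. DKK1, a secreted inhibitor of Wnt signalling, was at least 84.1-fold higher, but its treated arrays were far apart, at 9.44 and 11.34. SPOCK1, a secreted proteoglycan, was at least 79.7-fold higher, and CXCL12, the chemokine that binds CXCR4, at least 70.8-fold higher, from 3.28 to 3.55 at 0 h to 9.92 and 10.37. SPP1, the bone matrix protein osteopontin, read at most 2.66 at 0 h and 10.06 and 10.14 at 96 h, at least 68.6-fold higher. LAMA4, a laminin chain of basement membranes, had a bound of 67.6-fold on 1 probe set, although its probe sets reached very different levels at 96 h, and 2 of the 5 stayed below log2 4 there. The limma adjusted p of these 8 genes ran from 6.7e-12 (SPP1 and LAMA4) to 4.8e-06 (VCAN).

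**Figure D1:**
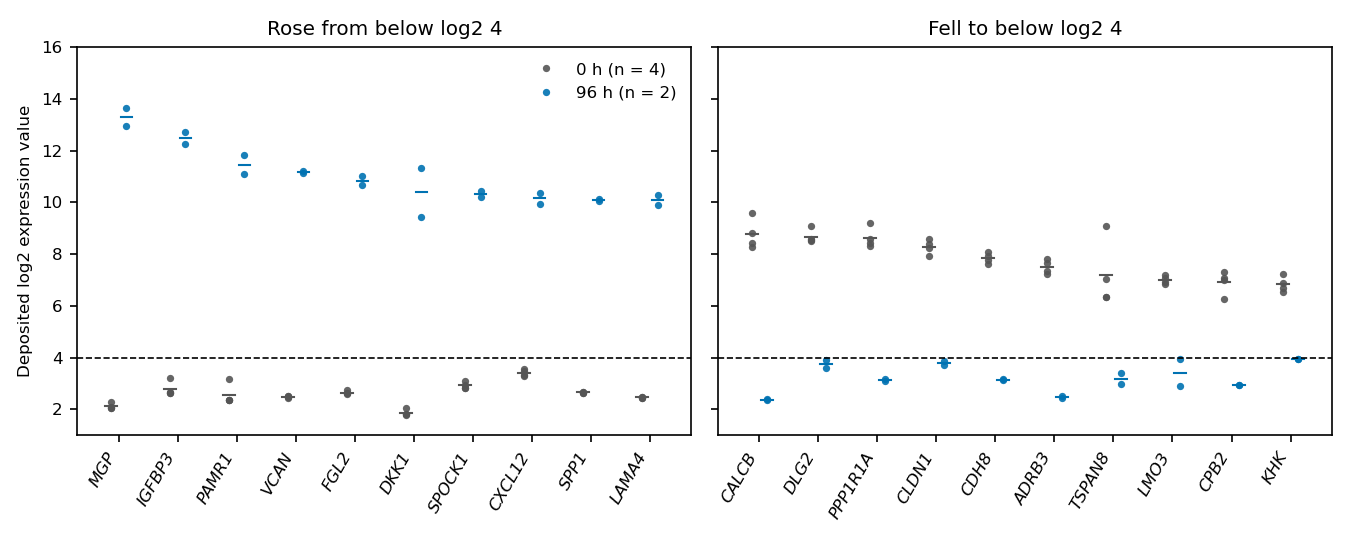
Deposited log2 expression values (y axis) on each array at 0 h (grey, n = 4) and 96 h (blue, n = 2) for the 10 genes with the largest rise from below log2 4 (left) and the 10 with the largest fall to below it (right), with group means as short lines and log2 4 dashed. The MGP arrays at 96 h sit at 12.96 and 13.66 against at most 2.29 at 0 h, and the CALCB arrays at 2.38 and 2.37 against at least 8.28.

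In the other direction, 120 genes (1.64%) fell to below log2 4 in every probe set on both arrays at 96 h. CALCB, which encodes the second form of calcitonin gene-related peptide, read 8.82, 8.44, 8.28 and 9.58 at 0 h and 2.38 and 2.37 at 96 h, at least 27.5-fold lower (limma adjusted p = 9.8e-09). DLG2, a scaffold protein of synapses, was at least 25.5-fold lower, from 8.50 to 9.07 at 0 h to 3.59 and 3.92. PPP1R1A, an inhibitor of protein phosphatase 1 and a known activated target of the fusion, read 8.30 to 9.18 at 0 h and 3.17 and 3.10 at 96 h, at least 24.6-fold lower (limma adjusted p = 1.8e-09). All untreated arrays of these 3 genes were far above both treated ones, but only genes whose groups did not overlap could be chosen.

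The other genes of this group have diverse roles. CLDN1, a tight junction protein, was at least 19.4-fold lower, and CDH8, a cadherin of neurons, at least 14.3-fold lower. ADRB3, the beta-3 adrenergic receptor and a known activated target of the fusion, was at least 11.3-fold lower, at 2.43 and 2.53 against 7.21 to 7.79. TSPAN8, a tetraspanin of the cell surface, spread widely at 0 h, from 6.33 to 9.07, and was at least 9.16-fold lower (limma adjusted p = 0.00352). LMO3, a LIM-domain cofactor of transcription, was at least 7.98-fold lower, CPB2, a carboxypeptidase that slows clot lysis, at least 7.52-fold, and KHK, the first enzyme of fructose breakdown, at least 7.10-fold. KHK lay just under the limit at 96 h, at 3.95 and 3.94.

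Among genes measured on all 6 arrays, 6480 in all, 1480 rose and 2449 fell. TDO2, the enzyme that opens the tryptophan ring, had the largest rise, from 4.53, 4.90, 5.25 and 6.51 at 0 h to 13.34 and 13.24 at 96 h. It rose by 7.99 ± 0.37 (limma adjusted p = 1.3e-09). IGFBP7, a secreted binding protein of the insulin-like growth factor family, rose by 7.85 ± 0.50, from 4.45 to 6.93 at 0 h to 13.30 and 12.98. TFPI2, a secreted protease inhibitor, rose by 7.30 ± 0.43 to 13.72 and 13.40, and LRRC17, a secreted leucine-rich repeat protein, by 6.88 ± 0.25 to 13.10 and 12.44. For all 4 genes both treated arrays lay far above the highest untreated array, but only genes whose groups did not overlap could be chosen.

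PTX3, a long pentraxin of innate immunity, rose by 6.35 ± 0.97, and its untreated arrays were far apart, with 4.93 on replicate 1 and 7.32 to 7.95 on the others. LOX, the enzyme that cross-links collagen and elastin, behaved alike, at 5.74 on replicate 1 and 8.20 to 8.95 on the others, and rose by 5.36 ± 0.92 to 13.56 and 13.05. IGFBP5, another binding protein for insulin-like growth factors, rose by 6.26 ± 0.50, and here replicate 4 stood apart, at 6.60 against 4.69 to 5.00. MYLK, the kinase of myosin light chain, rose by 5.80 ± 0.29, MMP10, a matrix metalloprotease, by 5.59 ± 0.35, and COLEC12, a scavenger receptor, by 5.33 ± 0.82. The limma adjusted p of these 6 genes ran from 2.7e-09 (MYLK) to 0.000223 (LOX).

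The largest graded fall was that of PRKCB, a protein kinase C known as an activated target of the fusion. It read 10.61, 9.91, 9.91 and 10.52 at 0 h and 4.94 and 5.10 at 96 h, and fell by 5.22 ± 0.26 (limma adjusted p = 2.4e-09). Its second probe set fell by 5.74. DKK2, a relative of DKK1, fell by 4.85 ± 0.35, while DKK1 was among the genes with the highest bounds for a rise. HOOK1, a linker of cargo to microtubules, fell by 4.42 ± 0.23, and CNTNAP2, an adhesion protein of axons, by 4.34 ± 0.31, with all 4 of its probe sets lower.

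RAP1GAP, which switches off the GTPase Rap1, fell by 4.33 ± 0.45 from untreated arrays at 8.14 to 9.62 to 4.31 and 4.72 at 96 h. ABHD6, a lipase that breaks down an endocannabinoid, fell by 4.10 ± 0.20, SH3GL3, an endophilin of membrane traffic, by 3.96 ± 0.17, and ADGRG2, an adhesion receptor, by 3.94 ± 0.25. NPY, the neuropeptide Y that Ewing sarcoma cells are known to secrete, read 8.42, 7.84, 7.76 and 9.25 at 0 h and 4.46 and 4.61 at 96 h and fell by 3.78 ± 0.57 (limma adjusted p = 7.6e-05). These falling genes were chosen among genes whose treated arrays lay below all untreated ones, so that separation is part of the rule.

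**Figure D2:**
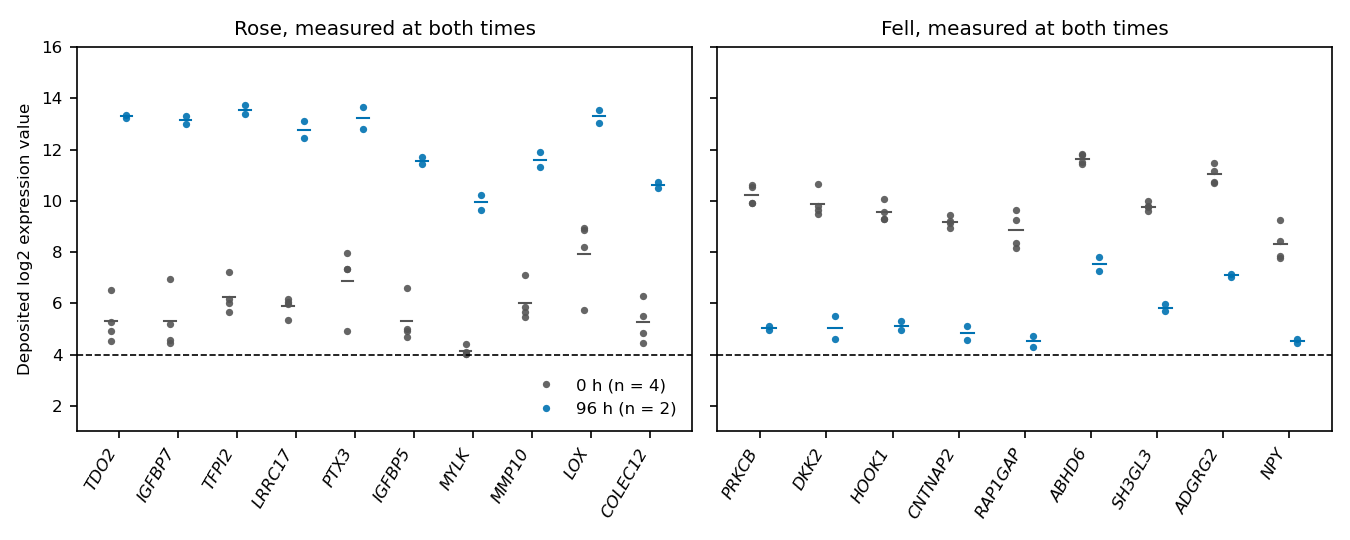
Deposited log2 expression values (y axis) on each array at 0 h (grey, n = 4) and 96 h (blue, n = 2) for the 10 largest rises (left) and 9 of the 10 largest falls (right) among genes at log2 4 or above on all 6 arrays, with group means as short lines. TDO2 sits at 13.34 and 13.24 at 96 h against at most 6.51 at 0 h, and PRKCB at 4.94 and 5.10 against at least 9.91.

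Known targets of EWS-FLI1 moved with the knockdown. Of 32 genes listed as activated by the fusion, 25 were tested, and 24 fell, none rose, and the median change was -2.32 against -0.10 over all genes tested. A list member that is below log2 4 in 1 group passed the filter only through other arrays, so counts are also given below for the members at log2 4 or above on all 6 arrays. For the activated targets these were 19, and all 19 fell. GYG2, which primes glycogen synthesis and is a classic marker of fusion activity, read 9.44, 8.74, 8.73 and 8.51 at 0 h and 3.59 and 4.27 at 96 h. It fell by 4.93 ± 0.23, with 1 of the treated arrays below log2 4 (limma adjusted p = 1.8e-09). GLI1, the Hedgehog pathway factor and the member that did not pass, differed by -0.56 ± 0.34 (limma adjusted p = 0.170), near the measuring limit at both times. Both lists of targets were drawn up from published knowledge of Ewing sarcoma with earlier results of these data known, so they are no independent evidence of direction.

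Of 19 genes listed as repressed, 17 were tested and 11 rose, with none lower and a median of 2.67. Of the 11 at log2 4 or above on all 6 arrays 7 rose. Beside IGFBP3 and DKK1, both below log2 4 at 0 h, the tested members that rose included SPRY1, an inhibitor of receptor kinase signalling. SPRY1 read 4.78, 4.80, 3.72 and 3.94 at 0 h and 10.65 and 11.11 at 96 h. It rose by 6.57 ± 0.30, with 2 of the 4 untreated arrays below log2 4 (limma adjusted p = 1.2e-09). TGFBR2, the type II receptor for TGF-beta and a known repressed target, read 8.78 to 9.17 at 0 h and 11.52 on both arrays at 96 h, a rise of 2.54 ± 0.14.

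**Figure D3:**
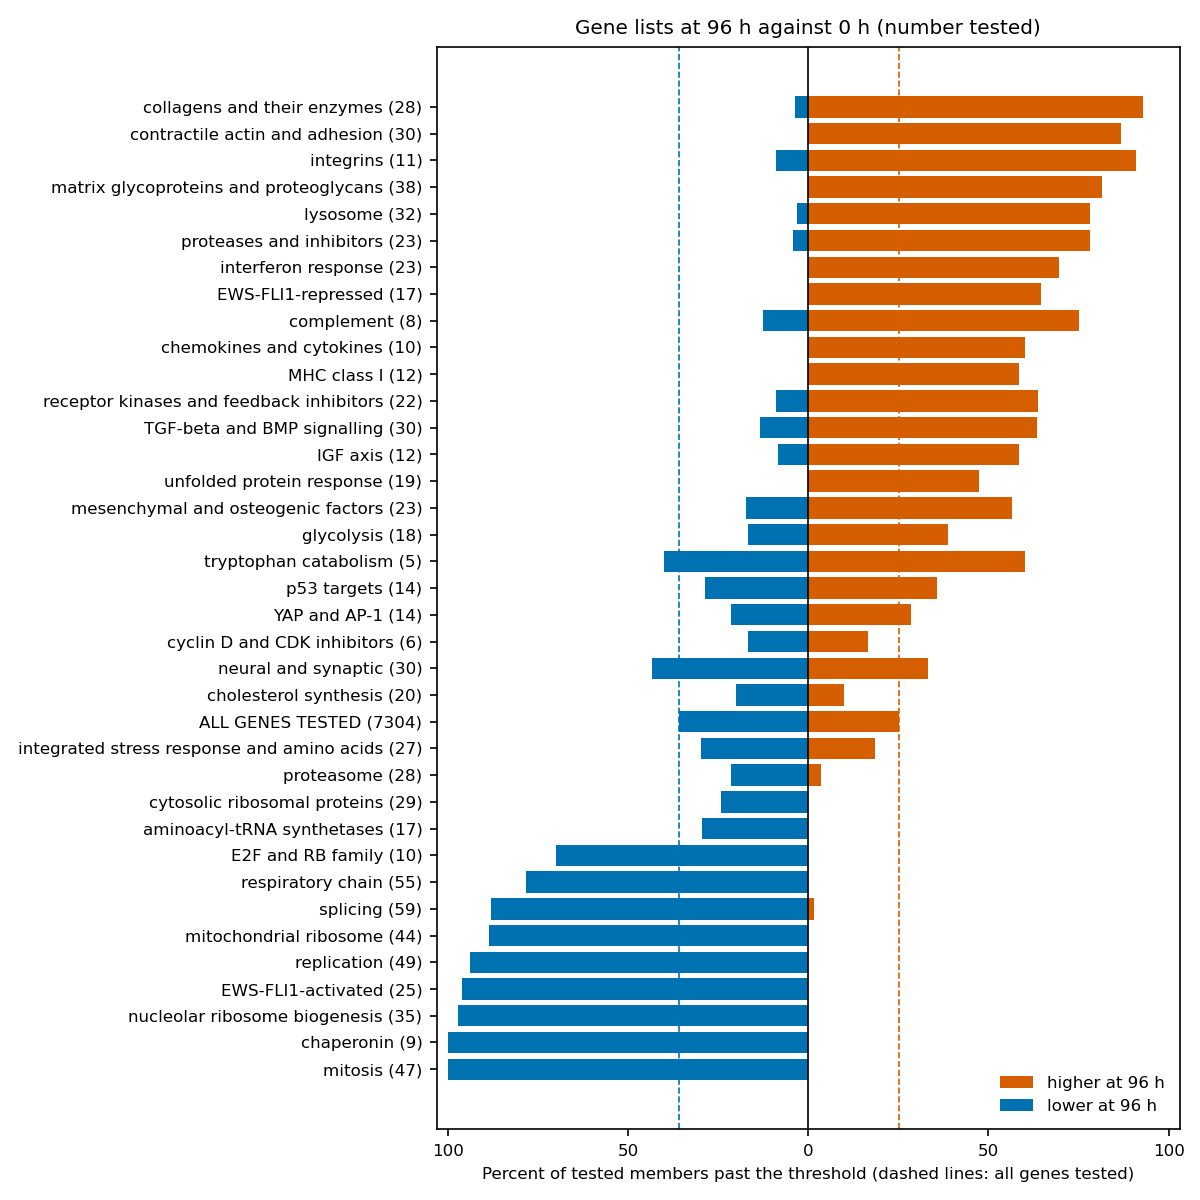
Percent of the tested members of each gene list (rows, with the number tested) that were higher (orange, right) or lower (blue, left) at 96 h than at 0 h past the limma threshold; dashed lines mark the shares over all 7304 genes tested, 25.1% higher and 35.7% lower. Collagen, contractile and integrin genes lie mostly to the right, and mitosis, chaperonin, nucleolar and replication genes mostly to the left.

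Genes of the cell cycle were lower at 96 h. Of 52 genes of DNA replication 49 were tested and 46 fell, with a median of -1.03. PRIM1, the primase subunit that starts new strands, read 10.43, 10.41, 10.48 and 10.36 at 0 h and 8.66 and 8.59 at 96 h and fell by 1.79 ± 0.16 (limma adjusted p = 5.5e-07). MCM7, part of the replicative helicase, fell by 1.43 ± 0.13, and RPA2 and RPA3, subunits of the single-strand binding protein, by 1.07 ± 0.10 and 1.03 ± 0.11. The 3 members that did not pass, named after their values were seen, were RPA1 (-0.17 ± 0.086) and the E cyclins CCNE1 (0.35 ± 0.53) and CCNE2 (-0.057 ± 0.35), which start S phase.

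Of 49 genes of mitosis 47 were tested and all 47 fell, with a median of -1.31 and no overlap of arrays in any of them. PTTG1, the securin that holds back chromatid separation, read 11.82, 11.67, 11.66 and 11.74 at 0 h and 10.18 and 10.16 at 96 h, a fall of 1.55 ± 0.10 (limma adjusted p = 4.1e-08). CCNB2, a B-type cyclin, fell by 1.70 ± 0.14, CENPM, a centromere protein, by 1.67 ± 0.15, and CKS2, a subunit of cyclin-dependent kinases, by 1.22 ± 0.11.

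Regulators upstream of these genes moved less evenly. Of 13 genes of the E2F and RB family 10 were tested and 7 fell, a count that was 3 without replicate 2 at 96 h. E2F1, an activating E2F, read 8.01 to 8.17 at 0 h and 6.41 and 6.35 at 96 h and fell by 1.71 ± 0.15 (limma adjusted p = 6.2e-07). E2F5, a repressor form, fell by 2.54 ± 0.17 with 6.92 to 6.98 at 0 h and 4.34 and 4.48 at 96 h. E2F8, another repressor form, fell by 1.49 ± 0.29, or by 0.98 without replicate 2 at 96 h. E2F3 fell by 0.66 ± 0.18, but its adjusted p was 0.0649 without the same replicate. The members that did not pass were TFDP2, a partner of the E2Fs, and the pocket proteins RB1 and RBL2, at -0.34, -0.30 and 0.03.

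The list of cyclin D, cyclin-dependent kinases and their inhibitors had 6 tested genes. CDK2 fell by 0.50 ± 0.15 and CDKN1A, the inhibitor p21, rose by 0.99 ± 0.38 (limma adjusted p = 0.00931 and 0.0360). Another CDK2 probe set differed by -0.57 (limma adjusted p = 0.126). CDK2 differed by -0.34 (adjusted p = 0.136) without replicate 2 at 96 h. CDKN1A lost its call without replicate 2, 3 or 4 at 0 h or either replicate at 96 h, with adjusted p from 0.0542 to 0.192. CDKN1B, the inhibitor p27, differed by 0.036 ± 0.17 and CDK4 by -0.16 ± 0.10, neither past the threshold, and CDKN1B stood at -0.26 without replicate 2 at 96 h. CCND1, cyclin D1, is on the list of activated targets; it fell by 2.33 ± 0.18 and was named here after its values were seen.

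Promoter sequence was looked at because the replication and mitosis genes fell together. RefSeq windows of the 250 bases before the gene start (GRCh38.p14) were available for 42 of the 49 tested replication genes and 39 of the 47 mitosis genes. The E2F motif was searched as TTTCCCGC, TTTCGCGC, TTTGCCGC and TTTGGCGC on both strands. It was present for 14 replication genes (33.3%), against 3.4% of all 27305 genes with a window and 6.2% of the tested genes with one. The CHR motif was searched as TTTGAA and TTCGAA on both strands and was present for 24 mitosis genes (61.5%), against 17.2% and 14.6%. Over all genes past the threshold with a window, the E2F motif was present for 7.6% of those lower and 3.7% of those higher. The CHR motif was present for 15.1% of either. The shares of the replication and mitosis lists describe their members, and a link to the fall was not tested. No searched E2F motif contains a searched CHR motif. Genes with several starts have several windows and more chances of a match, and a match is a description of letters, not of a bound site. To show the letters, the windows of 2 genes that hold each motif are printed from 5′ to 3′ on the gene's strand, with the matches in capitals. These genes had the smallest adjusted p among those with the motif, with genes on 1 chromosome left aside. They are MCM7 at chr7:100101398-100101647 (minus strand, 1 of its 3 windows), TYMS at chr18:657403-657652 (plus), CCNB2 at chr15:59104896-59105145 (plus) and CKS2 at chr9:89310945-89311194 (plus).
MCM7: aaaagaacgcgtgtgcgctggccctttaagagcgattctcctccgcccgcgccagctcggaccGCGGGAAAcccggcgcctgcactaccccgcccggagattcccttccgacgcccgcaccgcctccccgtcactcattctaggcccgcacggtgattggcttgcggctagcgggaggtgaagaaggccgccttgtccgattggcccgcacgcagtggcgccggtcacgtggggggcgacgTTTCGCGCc
TYMS: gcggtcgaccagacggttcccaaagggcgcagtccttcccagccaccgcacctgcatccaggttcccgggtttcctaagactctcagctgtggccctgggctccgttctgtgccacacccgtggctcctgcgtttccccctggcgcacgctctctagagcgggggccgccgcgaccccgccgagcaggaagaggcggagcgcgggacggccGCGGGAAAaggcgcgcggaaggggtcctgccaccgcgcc
CCNB2: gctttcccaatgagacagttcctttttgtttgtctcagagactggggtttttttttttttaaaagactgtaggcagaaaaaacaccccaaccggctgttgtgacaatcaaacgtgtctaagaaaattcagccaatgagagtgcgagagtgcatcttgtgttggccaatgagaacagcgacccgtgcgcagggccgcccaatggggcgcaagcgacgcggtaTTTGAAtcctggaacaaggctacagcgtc
CKS2: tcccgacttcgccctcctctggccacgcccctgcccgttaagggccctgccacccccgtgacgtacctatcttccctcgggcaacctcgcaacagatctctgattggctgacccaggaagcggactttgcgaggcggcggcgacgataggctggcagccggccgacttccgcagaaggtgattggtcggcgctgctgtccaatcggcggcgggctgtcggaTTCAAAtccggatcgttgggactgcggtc
MCM7 has 2 E2F matches. In TYMS, thymidylate synthase, the match begins 39 bases before the start, and TYMS fell by 0.83 ± 0.10 (limma adjusted p = 1.4e-05). In both CCNB2 and CKS2 the CHR match begins 29 bases before the start.

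The GGAAGGAA repeat, searched on both strands in the same windows, was present for 1 of the 95 genes with a window among the 120 that fell to below log2 4 (1.1%), against 3.8% of all genes with one and 4.4% of the tested genes with one. The windows end at 250 bases, so sites farther away were not read.

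Genes of the extracellular matrix were higher at 96 h. Of 34 collagens and collagen enzymes 28 were tested: 26 rose and 1 fell, with a median of 2.21. Among the 23 that were at log2 4 or above on all 6 arrays, and so passed the filter without help from either group, 21 rose and 1 fell. COL1A2, a chain of type I collagen, read 7.66, 7.99, 7.84 and 8.11 at 0 h and 12.18 and 12.38 at 96 h and rose by 4.38 ± 0.15 (limma adjusted p = 7.8e-11). COL6A2, a chain of type VI collagen, rose by 3.94 ± 0.12 with 7.53 to 7.84 at 0 h and 11.67 and 11.47 at 96 h. COL15A1, a basement membrane collagen, was at background at 0 h and at 6.39 and 6.15 at 96 h, at least 4.82-fold higher. PLOD3, which hydroxylates and glycosylates collagen, rose by 2.00 ± 0.10. COL21A1, a fibril-associated collagen, was the member that fell, by 0.77 ± 0.12. CRTAP, which helps to hydroxylate collagen prolines and did not pass, differed by 0.28 (limma adjusted p = 0.0530).

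Of 46 matrix glycoproteins and proteoglycans 38 were tested and 31 rose, none fell, with a median of 1.78, and of 23 at log2 4 or above on all 6 arrays 19 rose. NID2, a linker of basement membranes, read 7.06 to 7.49 at 0 h and 11.10 and 10.87 at 96 h and rose by 3.69 ± 0.17 (limma adjusted p = 1.3e-09). MGP, SPP1 and LAMA4, described above, belong here. Of 19 integrins 11 were tested, 10 rose and 1 fell, and of 7 at log2 4 or above on all 6 arrays 6 rose. The median of the integrins was 2.10, or 1.18 with values below log2 4 set to log2 4. ITGAV, a receptor chain for vitronectin, read 9.55, 9.70, 9.74 and 10.15 at 0 h and 12.79 and 12.44 at 96 h, a rise of 2.83 ± 0.15. ITGA5, a chain of the fibronectin receptor, rose by 2.13 ± 0.12, ITGA4, a chain that binds VCAM1, by 4.43 ± 0.25, and ITGA2, a collagen receptor chain, from background to 5.61 and 4.76, at least 2.27-fold. ITGAE, which pairs with beta 7 and binds E-cadherin, fell by 0.64 ± 0.15.

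Contractile and adhesion genes rose in 26 of 30 tested members (of 37 listed), none fell, and the median was 0.98. Of the 29 at log2 4 or above on all 6 arrays 25 rose and none fell. DSTN, the actin-severing protein destrin, read 12.07 to 12.22 at 0 h and 13.05 and 13.08 at 96 h and rose by 0.90 ± 0.071 (limma adjusted p = 2.3e-07). TGFB1I1, the focal adhesion protein HIC-5, rose by 3.51 ± 0.41, with 1 untreated array below log2 4, and ACTG2, smooth muscle gamma actin, by 3.37 ± 0.28, from 4.14 to 4.73 at 0 h to 8.13 and 7.39. Of 33 proteases and their inhibitors 23 were tested, 18 rose and 1 fell, with a median of 1.25, and of 18 at log2 4 or above on all 6 arrays 14 rose and none fell. HTRA1, a secreted serine protease, was at most 2.36 at 0 h and read 9.56 and 9.77 at 96 h, at least 50.8-fold higher (limma adjusted p = 2.9e-11). MMP2, a gelatinase, rose by 3.10 ± 0.15, CTSB, a lysosomal cysteine protease, by 1.79 ± 0.083, and ADAM12, a membrane metalloprotease, to 6.81 and 6.94, at least 7.32-fold. That ADAM12 reading comes from 1 of 4 probe sets, and the others stayed below log2 4 at 96 h. ADAMTS1, which cuts versican, went the other way, from 5.87 to 7.30 at 0 h to 3.93 and 3.24, at least 6.62-fold lower.

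Secreted regulators and receptors followed. Of 15 genes of the insulin-like growth factor axis 12 were tested, 7 rose and 1 fell, with a median of 1.04. Among the 10 at log2 4 or above on all 6 arrays 7 rose and 1 fell, with a median of 1.81. IGFBP2, a binding protein, read 11.58 to 11.81 at 0 h and 13.94 and 14.27 at 96 h and rose by 2.39 ± 0.12 (limma adjusted p = 2.1e-09), and IGFBP6, another, rose by 3.55 ± 0.21. IRS2, an adaptor of the insulin and IGF1 receptors, fell by 1.08 ± 0.16. The ligand IGF1 is on the list of activated targets and was named after its values were seen. It fell by 2.90 ± 0.38 to 4.31 and 5.21 (limma adjusted p = 2.0e-05).

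Of 37 TGF-beta and BMP genes 30 were tested, 19 rose and 4 fell, with a median of 1.10, or 15 and 4 with a median of 0.66 among the 25 at log2 4 or above on all 6 arrays. The latent TGF-beta binding proteins rose: LTBP2 was at most 2.35 at 0 h and 6.85 and 6.89 at 96 h, at least 7.33-fold higher, and LTBP3 rose by 3.10 ± 0.22. LTBP1 read 4.41 on replicate 4 at 0 h, at most 2.77 on the other 3, and 9.61 and 9.37 at 96 h, so the size of its rise was not measured (limma adjusted p = 4.9e-07). ACVR1, a type I BMP receptor, rose by 1.70 ± 0.15. The 4 members that went against the majority were SMAD6, an inhibitory SMAD, which fell by 1.18 ± 0.14, BMP7 by 0.79 ± 0.11, and ID2 and ID4, inhibitors of differentiation that BMP signals induce, by 1.18 ± 0.15 and 1.06 ± 0.16. The limma adjusted p of these 4 ran from 1.1e-05 (SMAD6) to 9.5e-05 (ID4), and the treated arrays lay below all untreated ones in each.

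Of 28 receptor tyrosine kinases, ligands and feedback inhibitors 22 were tested, 14 rose and 2 fell, with a median of 0.79, or 9 and 1 with a median of 0.72 among the 15 at log2 4 or above on all 6 arrays. EGFR, the receptor for epidermal growth factor, was below log2 4 at 0 h and read 7.82 and 7.18 at 96 h, at least 11.3-fold higher (limma adjusted p = 1.0e-09). Only 1 of its 6 probe sets passed the filter, and the others stayed below log2 4 at 96 h. HGF, the ligand of MET, read 7.15 and 7.72 at 96 h, at least 10.8-fold higher. The probe set used for PDGFRA, which binds PDGF, moved from 3.24 to 3.84 at 0 h to 9.86 and 10.61. Another PDGFRA probe set, at 4.66 to 4.93 at 0 h, rose by 1.96 ± 0.20 to 6.35 and 7.14. SPRY2, a feedback inhibitor like SPRY1, rose by 2.61 ± 0.17. EPHA2 fell by 1.04 ± 0.26. FGFR3 was below log2 4 on both treated arrays and on 2 of the 4 untreated ones, with a bound of 1.56-fold lower. FGFR3 lost its call with values below log2 4 set to log2 4 (adjusted p = 0.102), and EPHA2 without replicate 2 at 96 h (-0.70, adjusted p = 0.0765).

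Among 14 tested YAP and AP-1 genes of 20 listed, 4 rose and 3 fell, with a median of 0.33, and 2 rose without replicate 2 at 96 h. Among the 11 at log2 4 or above on all 6 arrays 3 rose and 3 fell, with a median of 0.10. WWTR1, the YAP relative TAZ, rose by 1.69 ± 0.092 with 11.39 to 11.56 at 0 h and 13.25 and 13.05 at 96 h. FOSL2, an AP-1 subunit, rose to 4.63 and 4.57 from background, at least 1.52-fold. AMOTL2, which holds YAP in the cytoplasm, fell by 1.88 ± 0.42 and TEAD4, a DNA-binding partner of YAP, by 1.79 ± 0.41. ATF3, a stress-induced factor, fell by 0.73 ± 0.23, a call lost without replicate 1 at 96 h (-0.29, adjusted p = 0.304).

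Mesenchymal and osteogenic factors rose more often than they fell. Of 32 listed 23 were tested, 13 rose and 4 fell, with a median of 0.55, or 0.33 with values below log2 4 set to it. Among the 18 at log2 4 or above on all 6 arrays 10 rose and 3 fell. S100A4, a calcium-binding protein of motile cells, read 7.35 to 8.02 at 0 h and 11.53 and 11.89 at 96 h and rose by 4.10 ± 0.23 (limma adjusted p = 6.8e-09). SOX9, the cartilage factor, rose by 2.67 ± 0.18 and CDH2, N-cadherin, by 2.12 ± 0.13, while PRRX1, a limb mesenchyme factor, reached 4.00 and 4.59 from background, at least 1.23-fold. The bone factor DLX5 fell by 2.65 ± 0.38, with treated arrays far apart at 4.76 and 6.58 and a fall of 1.74 without replicate 1 at 96 h. TCF12, a basic helix-loop-helix factor, fell by 0.82 ± 0.087. ZEB2, a repressor of E-cadherin, fell by 0.73 ± 0.17 and lost its call without replicate 2 at 96 h (-0.44, adjusted p = 0.0679). ALPL, bone alkaline phosphatase, was at least 1.75-fold lower (limma adjusted p = 0.0245). It lost its call without replicate 1 or 4 at 0 h or either replicate at 96 h, with adjusted p up to 0.109.

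Neural and synaptic genes moved both ways. Of 64 listed 30 were tested, 10 rose and 13 fell, and 11 rose and 11 fell with each array centred on its median. The median was 0.033, 0.075 with centred arrays and -0.28 after a second quantile normalization. Among the 25 at log2 4 or above on all 6 arrays 8 rose and 12 fell, with a median of -0.32. GAP43, a protein of growing axons, read 6.25 to 6.36 at 0 h and 11.14 and 10.95 at 96 h and rose by 4.72 ± 0.16 (limma adjusted p = 5.4e-11). NEFL, a neurofilament subunit, rose by 4.16 ± 0.39, L1CAM, an axon adhesion molecule, by 4.09 ± 0.26, and NCAM1, another, by 2.47 ± 0.48, with 2 of its untreated arrays below log2 4. The neuropeptide GAL reached 7.42 and 6.13 from background, at least 6.84-fold higher. SYT11, a synaptotagmin, rose by 2.54 ± 0.16, DPYSL3, a mediator of growth cone collapse, by 1.87 ± 0.15, STX1A, a syntaxin of synaptic release, by 1.46 ± 0.14, and UCHL1, a neuronal deubiquitinase, by 0.47 ± 0.076. NEFM rose by 1.49 ± 0.50, a call lost without replicate 1 at 96 h (1.11, adjusted p = 0.173).

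Those that fell included NELL2, a secreted neural protein, by 2.52 ± 0.11 from 13.58 to 13.98 at 0 h to 11.12 and 11.30, and MAPT, the microtubule protein tau, by 2.40 ± 0.13 (limma adjusted p = 7.7e-10 and 8.0e-09). Neurofilament and tau, both axonal, thus lay on opposite sides.

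Lists of innate immunity held many members that were below log2 4 at 0 h. Of 36 interferon response genes 23 were tested, 16 rose and none fell, with a median of 1.12, or 11 and 0.80 with values below log2 4 set to log2 4. Among the 12 at log2 4 or above on all 6 arrays 6 rose and none fell, with a median of 0.80. IRF9, part of the factor that answers type I interferon, read 4.12, 3.83, 3.78 and 4.22 at 0 h and 6.82 and 7.36 at 96 h, a rise (limma adjusted p = 8.1e-06) from values at the measuring limit. OAS1, an RNA-sensing enzyme, reached 5.11 and 6.05 from background, at least 2.99-fold higher. The membrane proteins IFITM3 and IFITM2, which block virus entry, rose by 1.76 ± 0.22 and 1.75 ± 0.22. Of 17 MHC class I genes 12 were tested and 7 rose, none fell, with a median of 1.15, or 6 of the 10 at log2 4 or above on all 6 arrays. HLA-B rose by 1.86 ± 0.35 and HLA-C by 1.68 ± 0.31, both from arrays that split at 0 h, with replicates 2 and 3 lower (8.47 and 8.50 for HLA-B) than replicates 1 and 4 (9.44 and 9.59). HLA-E and HLA-F rose by 1.46 ± 0.30 and 1.33 ± 0.30. These genes are near-identical in sequence, and probe sets may read more than 1 of them. B2M, the shared light chain, differed by -0.12 ± 0.12 (limma adjusted p = 0.386). The blood cell markers given above were at background on all 6 arrays.

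Of 17 complement genes 8 were tested, 6 rose and 1 fell, or 3 and 1 of the 4 at log2 4 or above on all 6 arrays. CFI, the protease that inactivates C3b, read at most 1.98 at 0 h and 7.22 and 7.86 at 96 h, at least 11.6-fold higher (limma adjusted p = 9.6e-12). CLU, clusterin, rose by 2.58 ± 0.23 and CD59, which blocks the lytic complex, by 2.30 ± 0.21. C1QBP, listed for its name and known mainly as a mitochondrial protein, fell by 0.90 ± 0.092. Of 22 chemokines and cytokines 10 were tested and 6 rose, none fell. Only 1 of the 10 was at log2 4 or above on all 6 arrays, so the others passed the filter through arrays where they were high, and the count says nothing about the list. CCL2, a monocyte attractant, read 3.68, 4.10, 3.95 and 3.82 at 0 h and 9.65 and 8.84 at 96 h, a rise (limma adjusted p = 1.4e-07) from values at the measuring limit. CXCL8, interleukin-8, rose by 5.90 ± 0.82 from untreated arrays spread over 3.65 to 7.14. LIF, a cytokine of the interleukin-6 family, was at least 3.44-fold higher. The 4 members that did not pass, named after their values were seen, were CXCL1, CXCL2, CCL20 and GDF15, and they had passed the filter on their values at other times.

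Lysosomal genes rose in 25 of 32 tested members (of 42 listed) and 1 fell, with a median of 0.76. Of the 28 at log2 4 or above on all 6 arrays 22 rose and 1 fell. LIPA, the acid lipase, read 9.11 to 9.35 at 0 h and 11.49 and 11.54 at 96 h and rose by 2.32 ± 0.15 (limma adjusted p = 3.0e-08). NPC2, a carrier of cholesterol, rose by 1.81 ± 0.12 and PSAP, which yields the saposins, by 1.07 ± 0.094. CTSO, a cathepsin, reached 5.87 and 6.31 from background, at least 4.26-fold higher. CTSC, another, fell by 1.10 ± 0.31, a call lost without replicate 2 at 96 h (-0.93, adjusted p = 0.0752).

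Genes of the unfolded protein response rose in 9 of 19 tested members (of 21), none fell, and the median was 0.65. PPIB, a prolyl isomerase of the endoplasmic reticulum, read 12.86 to 12.90 at 0 h and 13.99 and 13.89 at 96 h and rose by 1.06 ± 0.13 (limma adjusted p = 9.8e-06). PDIA3, a disulfide isomerase, rose by 0.83 ± 0.24, EDEM1, which marks misfolded proteins, by 1.05 ± 0.31, and DNAJB9, a cochaperone, by 1.54 ± 0.46. The list's count was 2 without replicate 1 at 96 h, 5 without replicate 2 and 16 in a fit of the 0 h and 96 h arrays alone. PDIA3 (0.52, adjusted p = 0.147) and EDEM1 (0.83, adjusted p = 0.104) lost their calls without replicate 1, and DNAJB9 (1.47, adjusted p = 0.0647) without replicate 2.

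Stress and amino acid genes were mixed: of 29 listed 27 were tested, 5 rose and 8 fell, with a median of -0.63. Between 3 and 5 fell when replicate 2, 3 or 4 at 0 h or either replicate at 96 h was left out. Among the 24 at log2 4 or above on all 6 arrays 3 rose and 8 fell, with a median of -0.70. SLC38A2, an amino acid carrier, read 12.19 to 12.47 at 0 h and 13.00 and 12.96 at 96 h and rose by 0.65 ± 0.078 (limma adjusted p = 1.1e-05). DDIT4, an inhibitor of mTOR signalling, rose by 3.61 ± 0.59. NUPR1, a stress-induced chromatin protein, rose to 7.44 and 7.95 from 0 h arrays of which 3 of 4 were below log2 4 (limma adjusted p = 0.000452). VLDLR, a lipoprotein receptor, was at least 4.37-fold higher. SLC7A11, the cystine carrier, rose by 0.70 ± 0.18 and lost its call without replicate 1 at 96 h (0.55, adjusted p = 0.0661). MTHFD1, a folate enzyme, fell by 0.79 ± 0.15. Of 23 genes of aminoacyl-tRNA synthetases 17 were tested, 5 fell and none rose. They included the scaffold AIMP1 (-0.63 ± 0.091), KARS1 (-0.39 ± 0.075), NARS1 (-0.79 ± 0.15) and FARSA (-0.95 ± 0.22).

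Among 14 tested p53 targets of 21 listed, 5 rose and 4 fell, with a median of 0.22. Among the 11 at log2 4 or above on all 6 arrays 3 rose and 4 fell, with a median of -0.0088. Whether p53 acts in these cells was not tested, so the counts are no measure of its activity. PLK2 and PLK3, polo-like kinases, rose by 3.32 ± 0.52 and 1.65 ± 0.26. TP53I3, a quinone reductase, rose to 6.68 and 6.47 from 0 h arrays of which 3 of 4 were below log2 4 (limma adjusted p = 3.0e-06). FAS, the death receptor, read 9.99 to 10.51 at 0 h and 8.48 and 8.31 at 96 h and fell by 1.90 ± 0.21 (limma adjusted p = 4.2e-06). AEN, an apoptotic nuclease, fell by 1.79 ± 0.33 and TIGAR, which restrains glycolysis, by 1.22 ± 0.25. BAX fell by 0.38 ± 0.16 (limma adjusted p = 0.0485), a call lost in 11 of its alternatives, among them leaving out replicate 2, 3 or 4 at 0 h or either replicate at 96 h, with adjusted p up to 0.149.

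Of 21 glycolysis genes 18 were tested, 7 rose and 3 fell, with a median of 0.076. The count of rises was 4 without replicate 3 at 0 h, 4 without replicate 1 at 96 h and 3 without replicate 2 at 96 h. The glucose carrier SLC2A3 rose by 1.29 ± 0.19 and the hexokinase HK1 by 1.12 ± 0.18, while the hexokinase HK2 fell by 1.55 ± 0.35 from 7.68 to 8.13 at 0 h to 6.68 and 6.05 (limma adjusted p = 0.00179). PFKM, muscle phosphofructokinase, fell by 0.77 ± 0.11 and LDHB, a lactate dehydrogenase subunit, by 0.42 ± 0.048. Of 28 cholesterol synthesis genes 20 were tested, 2 rose and 4 fell, and 2 fell without either replicate at 96 h. FDPS and EBP, both enzymes of the pathway, fell by 0.45 ± 0.11 and 0.69 ± 0.16, and INSIG2, which retains SREBP, rose by 0.77 ± 0.20. INSIG1 rose by 1.03 ± 0.32, a call lost without replicate 1 at 96 h (0.68, adjusted p = 0.176).

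Of 11 genes of tryptophan catabolism and its receptor 5 were tested. Beside TDO2, AHR, the aryl hydrocarbon receptor that binds kynurenine, rose by 1.90 ± 0.21 from 6.94 to 7.15 at 0 h to 9.20 and 8.72 (limma adjusted p = 5.0e-06). CYP1B1, a monooxygenase induced by that receptor, rose by 5.23 ± 0.40 to 10.39 and 11.16. KMO, which hydroxylates kynurenine, was at 4.65 to 6.11 at 0 h and at 1.95 and 1.92 at 96 h, at least 2.78-fold lower, and TIPARP, a repressor of the receptor, fell by 0.87 ± 0.10.

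Genes that make ribosomes fell, while those of the ribosome itself fell little. Of 48 nucleolar genes of ribosome biogenesis 35 were tested and 34 fell, with a median of -1.08. NOP10, a part of box H/ACA particles, did not pass. UTP18, which processes the small subunit, read 11.98 to 12.08 at 0 h and 10.86 and 10.58 at 96 h and fell by 1.31 ± 0.10 (limma adjusted p = 1.0e-07). WDR12 and TSR1, factors of the large and small subunit, fell by 1.28 ± 0.12 and 1.20 ± 0.12, and FBL, which methylates ribosomal RNA, by 0.54 ± 0.055. The other TSR1 probe sets differed by -1.42 and, with arrays that overlapped, by -0.21 (limma adjusted p = 0.364 for the latter). Of 41 cytosolic ribosomal protein genes 29 were tested and 7 fell, with a median of -0.038. RPL6, a large subunit protein, read 14.20, 14.20, 14.16 and 14.18 at 0 h and 14.00 and 13.90 at 96 h and fell by 0.23 ± 0.04 (limma adjusted p = 0.000210). RPL22, RPS7 and RPL37 fell by 0.35, 0.16 and 0.13. RPL22 lost its call without replicate 1 at 96 h (-0.17, adjusted p = 0.0566) and RPS7 in a fit without the variance trend (adjusted p = 0.0598). RPL37 lost its call in 8 alternatives, among them centred arrays (-0.084, adjusted p = 0.113), a second quantile normalization (-0.036), and without replicate 3 at 0 h or either replicate at 96 h, with adjusted p of 0.0533 to 0.117. The count was 3 and the median 0.0048 with centred arrays, and 12 and -0.093 after a second quantile normalization. It was 3 without replicate 3 at 0 h or replicate 1 at 96 h.

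Genes of the mitochondrion fell as well. Of 46 mitochondrial ribosome genes 44 were tested and 39 fell, none rose, with a median of -0.71. MRPL35, a large subunit protein, read 9.69, 9.67, 9.66 and 9.84 at 0 h and 8.34 and 8.24 at 96 h and fell by 1.42 ± 0.10 (limma adjusted p = 9.8e-08). MRPL42 fell by 1.07 ± 0.10, MRPS15 by 0.96 ± 0.086 and MRPS27 by 0.95 ± 0.09. Of 63 respiratory chain genes 55 were tested and 43 fell, none rose, with a median of -0.30, and 26 fell without replicate 1 at 96 h. ATP5MC1, a subunit of the ATP synthase ring, fell by 1.20 ± 0.12, the complex I subunits NDUFC1 and NDUFA7 by 0.92 ± 0.11 and 0.86 ± 0.10, and CYC1, cytochrome c1, by 0.67 ± 0.077.

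Of 62 splicing genes 59 were tested, 52 fell and 1 rose, with a median of -0.61. SRSF3, a splicing regulator, read 12.85 to 12.97 at 0 h and 12.09 and 11.93 at 96 h and fell by 0.91 ± 0.066 (limma adjusted p = 1.1e-07). SRSF1, a regulator of the same family, also fell by 0.91, and SNRPA and SNRPA1, proteins of the U1 and U2 particles, by 1.14 ± 0.085 and 1.03 ± 0.10. TRA2A, a further regulator, was the member that rose, by 1.06 ± 0.28, but its probe sets disagreed, and without probe sets of the _x_at and _s_at kinds it stood at -0.46.

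All 9 tested chaperonin genes of 10 listed fell, with a median of -0.58. CCT8, a subunit of the ring that folds actin and tubulin, read 13.15 to 13.25 at 0 h and 12.68 and 12.56 at 96 h and fell by 0.58 ± 0.063 (limma adjusted p = 4.3e-06), and the subunits CCT2, CCT7 and CCT6A fell by 0.72, 0.58 and 0.63. Of 32 proteasome genes 28 were tested, 6 fell and 1 rose, with a median of -0.14. The lid subunit PSMD12 fell by 0.61 ± 0.11, while the base ATPase PSMC4 rose by 0.26 ± 0.075, from 11.00 to 11.05 at 0 h to 11.29 and 11.27.

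The arrays at 72 h show which of these differences were still moving. Between 72 h and 96 h 1988 genes changed at an adjusted p under 0.05 in limma (27.2% of those tested), with 1250 higher (17.1%) and 738 lower (10.1%) at 96 h. Rises made up 62.9% of these calls, 51.8% with centred arrays and 55.2% after a second quantile normalization. The total was 1202 without replicate 1 at 72 h, 1247 without replicate 2 at 72 h and 1242 without replicate 1 at 96 h, and the falls were then 361, 402 and 393. The median change over all genes tested was 0.032. The comparisons of 96 h with 72 h and with 0 h share the arrays at 96 h.

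Among 0, 72 and 96 h, the cell cycle lists stood lowest at 72 h and between that level and 0 h at 96 h. Between 72 h and 96 h 48 of 49 tested replication genes rose, with a median of 1.97, and so did all 47 mitosis genes, with a median of 2.19. The mean over the mitosis genes was 10.19 to 10.69 at 0 h and 9.33 and 8.96 at 96 h, with the lower array at 72 h at 6.98 and the other close to it. For the replication genes it was at least 9.89 at 0 h, 6.97 and 6.92 at 72 h and 9.03 and 8.76 at 96 h. FOXM1, the factor that drives mitotic genes, had the largest rise among genes measured at both times. It read 9.50, 9.47, 9.44 and 9.16 at 0 h, 4.02 and 4.01 at 72 h and 7.78 on both arrays at 96 h, 3.77 ± 0.17 above 72 h (limma adjusted p = 3.4e-08) and still 1.61 ± 0.15 below 0 h.

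HJURP, which loads the centromeric histone, was 3.45 ± 0.37 higher at 96 h than at 72 h, the mitotic motor CENPE 3.35 ± 0.38 and the replication factor MCM10 3.32 ± 0.36. HJURP and CENPE lost their call against 0 h without replicate 2 at 96 h, at -0.96 (adjusted p = 0.0653) and -0.87 (adjusted p = 0.0901). FLI1 did not differ past the threshold between 72 h and 96 h, as given above. EWSR1 read 8.58 and 8.44 at 72 h and 8.97 and 8.72 at 96 h, a difference of 0.33 ± 0.12 (limma adjusted p = 0.0509). A link of either gene to the cell cycle lists was not tested. Smooth muscle actin ACTG2 was at its 0 h level at 72 h, at 4.12 and 4.49, and 3.46 ± 0.32 higher at 96 h. IFI44, an interferon response gene, read 5.92 to 7.43 at 0 h, 4.87 and 4.28 at 72 h and 8.14 and 7.26 at 96 h. Its rise against 0 h, 1.12 ± 0.39, was lost without replicate 4 at 0 h (0.90, adjusted p = 0.0569) or replicate 1 at 96 h (0.69, adjusted p = 0.263).

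**Figure D4:**
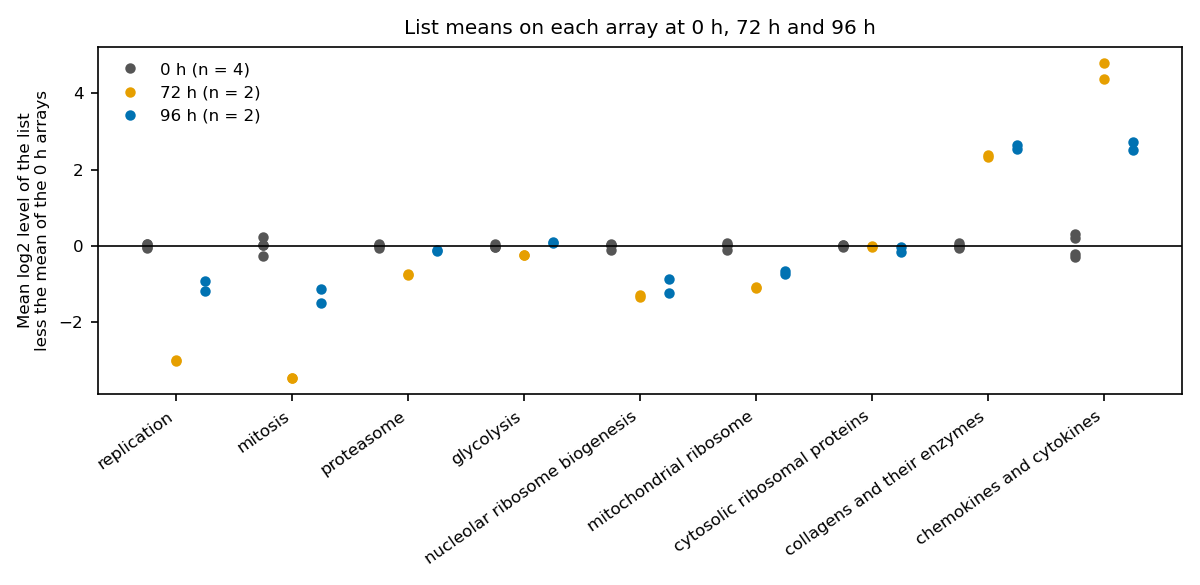
Mean log2 level of 9 gene lists on each array at 0 h (n = 4), 72 h (n = 2) and 96 h (n = 2), less the mean of the 0 h arrays (y axis, log2 units). Among these 3 times replication and mitosis genes are lowest at 72 h and lie between that level and 0 h at 96 h; tested chemokine genes include members that passed the filter through their values at 72 h.

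Proteasome genes also stood higher than at 72 h, in 27 of 28 tested members, with a median of 0.60, and their mean was 11.66 to 11.76 at 0 h, 10.99 and 10.95 at 72 h and 11.61 and 11.59 at 96 h. Glycolysis genes were higher in 11 of 18 and lower in 1, with 7 or 8 higher when any 1 array was left out. Mitochondrial ribosome genes were higher in 19 of 44, a count that was 10 without replicate 1 at 72 h, 9 without replicate 2 at 72 h and 10 without replicate 2 at 96 h. Splicing genes were higher in 22 of 59 and lower in 3, and 13 to 15 were higher without replicate 2 or 1 at 72 h or replicate 1 at 96 h. Nucleolar genes were higher in 8 of 35, none lower.

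Other genes were higher at 72 h than at both 0 h and 96 h, the only times compared here. The stress cytokine GDF15, named after its values were seen, read 9.65 and 9.86 at 72 h and 3.83 and 4.68 at 96 h, against 2.39 to 4.08 at 0 h. PLXNC1, a semaphorin receptor, read 2.71 to 2.78 at 0 h, 9.48 and 9.29 at 72 h and 5.74 and 6.00 at 96 h, a fall of 3.52 ± 0.24 from 72 h (limma adjusted p = 5.5e-07). It remained above background, at least 3.65-fold higher than at 0 h.

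GAS2, a protein that links actin to microtubules, fell by 3.53 ± 0.57 from 8.41 and 8.35 at 72 h to 4.51 and 5.20. THBS1, the matrix protein thrombospondin and a known repressed target, fell by 2.80 ± 0.58, and EDN1, the peptide endothelin, by 3.09 ± 0.44. EDN1 lost its call against 0 h without replicate 1 at 96 h (0.91, adjusted p = 0.0857). SELENOP, a selenium carrier, fell by 3.19 ± 0.64, and its arrays at 96 h differed widely, with replicate 1 at 4.46 and replicate 2 far higher. There was a fall of 1.93 without replicate 1 at 96 h and no call against 0 h without replicate 2 (1.15, adjusted p = 0.0653). CEBPD, a stress-induced transcription factor, fell by 2.77 ± 0.24 from 72 h. Against 0 h it rose by 1.85 ± 0.20. Without probe sets of the _x_at and _s_at kinds CEBPD stood at -0.10. That value comes from a probe set at background, at 2.88 to 2.95 at 0 h and 2.88 and 2.77 at 96 h, and says little.

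**Figure D5:**
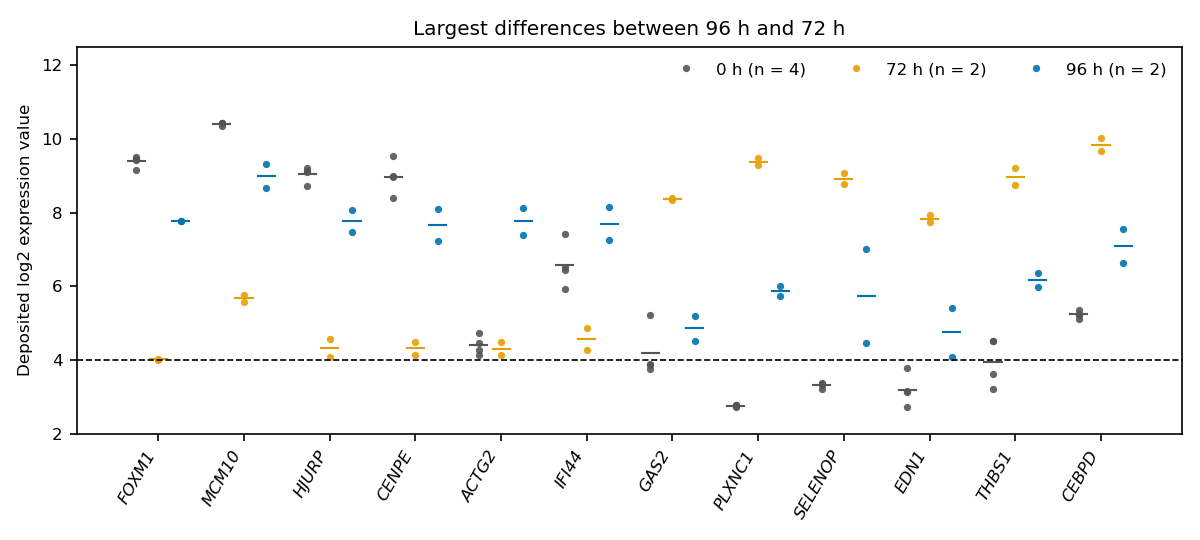
Deposited log2 expression values (y axis) on each array at 0 h (n = 4), 72 h (n = 2) and 96 h (n = 2) for the 6 largest rises and 6 largest falls between 72 h and 96 h among genes past the threshold at log2 4 or above on all 4 of those arrays, with group means as short lines and log2 4 dashed. FOXM1 moves from 4.02 and 4.01 at 72 h to 7.78 on both arrays at 96 h, and PLXNC1 from 9.48 and 9.29 to 5.74 and 6.00.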

How the data were processed

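The deposited table holds 22277 probe sets on 16 arrays as log2 values that the authors computed with GCRMA, per the submitters' processing notes; for GCRMA, version and settings were not given in the sources used here. GCRMA adjusts background by probe sequence, so values near background say little about size. Probe sets were named from the platform annotation (19070 with 1 symbol, 1043 with several, 2164 with none). The probe set with the highest mean stood for its gene. Genes not at log2 4 or above on at least 2 arrays were left out (4659 of 11963). One mean per time was fitted with limma 3.58.1 (lmFit, eBayes with trend, R 4.3.3) over all arrays, with 10 residual degrees of freedom and Benjamini-Hochberg adjustment over 7304 genes. The code was tested on simulated data. Figures used Python 3.11.15 and matplotlib 3.10.9.

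The members and gene lists were chosen with earlier results of these data known. Named genes are FLI1 and EWSR1, the 10 largest changes of each kind against 0 h, the 6 largest in each direction against 72 h among genes at log2 4 or above on all 4 of those arrays, and for each list the 4 members with the smallest adjusted p and those that moved against its majority; others were named after their values were seen. The result of 1 gene that this rule names is not reported here. Alternatives covered the arrays fitted, filter, probe sets, normalization, dim values, variance prior, array weights, replicate block and leaving out each array.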

Additional observations from a re-analysis of the deposited data

Results flagged for a closer look

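In 221 named genes the highest or lowest of the 4 arrays at 0 h was checked for a gap to the others above Dixon's 95% critical value, and chance flags about 1 in 20 groups. It was so in 22 genes, and the causes were not tested. Replicate 4 was the highest in MGP (2.29, others 2.05 to 2.08), IGFBP3 (3.22), PAMR1 (3.15) and DKK1 (2.04), all below log2 4, where values carry little information. It was also the highest in IGFBP5 (6.60, others 4.69 to 5.00), LTBP1 (4.41, others 2.74 to 2.77), MRPL42 (11.94) and FARSA (9.55), and the lowest in MCM10 (10.36, others all 10.43) and RPA3 (10.56). Replicate 1 was the highest in DLG2 (9.07), GAS2 (5.23, others 3.76 to 3.89), TRA2A (8.65, others 7.60 to 7.67) and DDIT4 (6.23, others 4.59 to 4.71). It was the lowest in SELENOP (3.21), ITGAE (11.27), ID4 (10.66), FOSL2 (2.39), AMOTL2 (8.20, others 9.52 to 9.64), MRPS15 (9.13) and TIGAR (7.61). Replicate 2 was the lowest in COL15A1 (2.24, others 2.26).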

How the results depend on the processing

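FLI1 fell by 3.16 to 3.55 when 1 array was left out. Of 217 named genes past the threshold against 0 h, 25 lost their call under some alternative, 14 of them without replicate 1 and 13 without replicate 2 at 96 h. Whether replicates with the same number belong together across times is not stated in the labels. The correlation of deviations between 0 h and 96 h was 0.045 for replicate 1 and -0.116 for replicate 2. With 2 arrays at 96 h their deviations mirror each other, so these correlations cannot decide whether replicates are paired. With the replicate block 4359 genes were called against 0 h and 2177 against 72 h. Signs turned for CEBPD (-0.10, from a probe set at background at 0 h and 96 h) and TRA2A (-0.46) without probe sets of the _x_at and _s_at kinds. FLT1 turned (-0.35) after a second quantile normalization. CDKN1B turned with array weights (-0.0015), the replicate block (-0.068) and without replicate 4 at 0 h (-0.067) or replicate 2 at 96 h (-0.26). CDKN1B ranged from -0.26 to 0.33 over arrays left out, and neither FLT1 nor CDKN1B was called.

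Without those probe sets only 4429 genes were tested: 2694 were called against 0 h (1103 higher, 1591 lower) and 1123 against 72 h (688 higher, 435 lower). Fewer members of these lists were then tested, and the number tested follows each count. Falls against 0 h were activated targets 14 of 16, replication 30 of 34, mitosis 28 of 28 and neural 8 of 20. Cholesterol had 2 of 12, cytosolic ribosome 2 of 12, nucleolar 19 of 20 and mitochondrial ribosome 16 of 20. Respiratory chain had 26 of 37, splicing 27 of 34, proteasome 3 of 17, chaperonin 5 of 5 and stress 4 of 15. Rises against 0 h were repressed targets 4 of 8, cyclin D 0 of 4, collagens 17 of 19 and glycoproteins 15 of 20. Contractile genes had 13 of 17, TGF-beta 11 of 15, receptor kinases 9 of 13 and mesenchymal 8 of 12. MHC class I had 2 of 4, chemokines 3 of 6, unfolded protein response 4 of 12, p53 3 of 8 and glycolysis 2 of 7. Rises against 72 h were mitosis 27 of 28, neural 5 of 20, mitochondrial ribosome 5 of 20 and splicing 9 of 34. Proteasome had 16 of 17 and glycolysis 3 of 7. With a change of at least 1 also required, 1673 genes (904 higher, 769 lower) were called against 0 h and 659 (411 higher, 248 lower) against 72 h.

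With the compared groups alone the counts were cytosolic ribosome 4, stress 15, unfolded protein response 16, and against 72 h mitochondrial ribosome 10 and respiratory chain 7. Cyclin D had 0 rises and the cytosolic ribosome 3 falls without the filter. Centred arrays gave 3 for the cytosolic ribosome and 12 for the mitochondrial ribosome against 72 h, and a second quantile normalization 12 for the cytosolic ribosome. Without the trend these were cytosolic ribosome 2 and glycolysis 4; with the replicate block cyclin D 0, cytosolic ribosome 4 and stress 4. Averaging replicates 2 and 3 at 0 h, chosen after seeing the data, gave 4182 calls, cyclin D 0, stress 4 and glycolysis 4.

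Leaving out 1 array gave 3654 to 4371 calls against 0 h and 1202 to 1834 against 72 h (361 to 715 lower). List counts ranged over 3 to 7 (E2F and RB), 0 to 1 (cyclin D), 2 to 4 (YAP and AP-1; cholesterol), 3 to 10 (cytosolic ribosome), 26 to 46 (respiratory chain), 3 to 7 (stress), 2 to 8 (unfolded protein response) and 3 to 6 (glycolysis); against 72 h, 3 to 12 (neural), 9 to 14 (mitochondrial ribosome), 13 to 18 (splicing) and 7 to 8 (glycolysis). The causes were not tested. Below log2 4 the signal limits every fold to a bound.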
